A study of Mus musculus with 36 samples.

Results

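The response of hippocampal slices to theta-burst stimulation was examined in T41B mice that had received PTX-BD10-2. Members were the libraries labelled with the T41B genotype and the PTX-BD10-2 treatment, which were 12 of the 36 libraries of the series. Libraries with the same mouse and stimulation labels were summed, which left 10 of the 32 mouse-by-stimulation samples of the series, namely 5 sham slices and 5 stimulated slices of 6 mice. Mouse1563, Mouse1564, Mouse1570 and Mouse1592 gave both slices, Mouse1557 gave only a sham slice and Mouse1572 only a stimulated slice. All of these mice carried the T41B transgene, human APP with the London and Swedish mutations behind a Thy1 promoter that is active in neurons, and all received BD10-2, a small molecule that partly activates TrkB and TrkC, the receptors of BDNF and neurotrophin-3, by oral gavage for 3 months between the ages of 13 and 16 months. The stimulated slices of the right hippocampus received theta-burst stimulation 3 times, each of 10 bursts with 4 pulses at 100 Hz and 200 ms between bursts, while the sham slices (labelled noSTIM) went through an equally long procedure with no bursts. Another 2 combinations served for comparison, with the same ages and procedures: vehicle-treated T41B mice (4 sham and 4 stimulated slices) and BD10-2-treated wild-type C57BL/6 mice (3 and 3). Vehicle-treated wild-type mice (4 and 4) also entered the fit, in which all groups share the estimate of the spread. No slice frozen without the sham procedure is among the groups used here, and since no batch named in the labels contains both treatments, batch and treatment cannot be told apart.

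Theta bursts imitate the firing rhythm of an exploring animal and are a standard way to induce long-term potentiation, in which calcium entry through NMDA receptors switches on immediate-early transcription factors such as Fos, Egr1 and Npas4 and then effectors such as Arc and Bdnf. Microglia, the resident macrophages of the brain, keep a homeostatic programme (Tmem119, P2ry12, Cx3cr1) in healthy tissue and adopt other programmes near amyloid plaques or on damage. Their sensing of danger signals runs through Toll-like receptors and the adaptor Myd88 to NF-κB, which induces cytokines, chemokines and its own inhibitors, and through type I interferon to a complex of STAT2 and IRF9, which induces the interferon-stimulated genes.

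Promoter sequences of 8 genes that the results turn on are given first, as examples of genes that rose (6) and fell (2). They come from RefSeq (build GRCm38.p6), run 5′ to 3′ in the direction of transcription, and are stretches of windows that reach from 250 bases before to 50 bases after each start. Capitals mark matches to the κB letters GGANTTTCC, the AP-1 letters TGACTCA or TGAGTCA (which are reverse complements of each other) and the core of an interferon-stimulated response element (GAAA, any 2 bases, then GAAA). The last was added after the data were seen. Both strands were searched, so a match on the opposite strand stands as its reverse complement, and overlapping matches run together.
Nfkbia, an NF-κB target and inhibitor that rose (chr12:55492648-55492835, minus strand): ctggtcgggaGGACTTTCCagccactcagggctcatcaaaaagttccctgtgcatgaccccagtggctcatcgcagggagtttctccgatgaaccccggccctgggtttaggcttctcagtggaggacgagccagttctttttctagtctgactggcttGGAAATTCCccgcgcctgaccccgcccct
Cxcl2, a neutrophil-attracting chemokine that rose (chr5:90903793-90903831, plus strand): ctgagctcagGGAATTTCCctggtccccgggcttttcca
Il6, a cytokine that rose (chr5:30012864-30013099, plus strand): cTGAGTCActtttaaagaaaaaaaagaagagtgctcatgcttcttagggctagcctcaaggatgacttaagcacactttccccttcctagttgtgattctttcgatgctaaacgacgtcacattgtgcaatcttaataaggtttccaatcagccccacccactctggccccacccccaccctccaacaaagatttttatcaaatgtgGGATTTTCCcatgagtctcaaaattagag
Cxcl10, an interferon-induced chemokine that rose (chr5:92348937-92349112, minus strand): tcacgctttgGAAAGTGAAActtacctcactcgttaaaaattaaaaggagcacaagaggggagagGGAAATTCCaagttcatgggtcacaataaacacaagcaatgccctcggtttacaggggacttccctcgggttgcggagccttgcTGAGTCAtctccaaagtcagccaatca
Isg15, an interferon-induced ubiquitin-like protein that rose (chr4:156200831-156200906, minus strand): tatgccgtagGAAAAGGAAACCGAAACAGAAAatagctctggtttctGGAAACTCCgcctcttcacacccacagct
Ifit1, an interferon-induced inhibitor of viral translation that rose (chr19:34640775-34640833, plus strand): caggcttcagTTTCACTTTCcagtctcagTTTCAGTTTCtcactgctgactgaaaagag
Cx3cr1, a homeostatic microglial receptor that fell (chr9:120068297-120068406, minus strand): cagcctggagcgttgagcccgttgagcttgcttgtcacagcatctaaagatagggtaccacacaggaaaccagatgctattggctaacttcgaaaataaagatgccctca
P2ry12, a homeostatic microglial receptor that fell (chr3:59262986-59263095, minus strand): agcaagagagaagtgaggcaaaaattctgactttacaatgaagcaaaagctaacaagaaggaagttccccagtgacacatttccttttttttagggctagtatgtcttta

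Nfkbia held 2 κB matches, which began 178 and 29 bases before the start, and Isg15 held 3 overlapping matches to the interferon core that began 78, 72 and 66 bases before it. Cxcl10 held all 3 kinds of match. The stretches printed for Cx3cr1 and P2ry12 held none. The 8 genes were picked as examples with their matches in view and do not stand for the other genes that rose or fell. Over all 32851 windows of the table, κB matches were found in 1.25%, AP-1 matches in 5.2%, the interferon core in 3.44% and the cyclic-AMP response element TGACGTCA, which none of the printed stretches holds, in 1.79%. A match describes letters and is neither a site nor a cause. Windows were listed for 34 of the 50 largest rises and 35 of the 50 largest falls, under 80% in both, so a comparison of motif shares between them is void and is not given.

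The 12 libraries held 11597555 to 20361281 expected counts. Total count, mitochondrial share, share of the 10 most abundant genes and number of genes detected did not differ between sham and stimulated slices beyond their spread (exact two-sided permutation p = 0.881, 0.762, 0.286 and 0.849, against a smallest possible p of 0.00794). Within the 4 mice that gave both slices, the mitochondrial share and the share of the 10 most abundant genes were each higher in the stimulated slice of 4 of 4 mice (exact two-sided sign-flip p = 0.125, the smallest that 4 pairs allow), the mitochondrial share by 0.1 to 1.2 percentage points, and their part in the results was not tested. In Mouse1592 the mitochondrial share was 2.5% and 2.79% in the 2 stimulated libraries against 2.56% in the sham library. Total count was higher in 4 of 4 mice too, but in Mouse1592 only as the sum of its 2 stimulated libraries, which held 15966657 and 18677704 counts against 19040375 in the sham library. The slices held the markers of the labelled tissue: the 12 markers of dentate granule neurons summed to 644 to 865 CPM (counts scaled to a common library size) in sham slices and the 10 of CA1 pyramidal neurons to 573 to 697 CPM. Thy1, whose promoter drives the transgene, measured 1044, 1939, 1517, 2168 and 2251 CPM in the sham slices and 1593, 1546, 1739, 1637 and 1468 CPM in the stimulated slices. Throughout, sham values are listed for Mouse1557, Mouse1563, Mouse1564, Mouse1570 and Mouse1592 and stimulated values for Mouse1563, Mouse1564, Mouse1570, Mouse1572 and Mouse1592, in that order, and a pair of numbers joined by a dash is the lowest and highest slice of a group. Mouse1592 stood apart. Its stimulated sample is the sum of 2 libraries, of which BD10_2_30 held 880 CPM of Thy1 and 30.1 CPM of the interferon-stimulated gene Rsad2 and BD10_2_32 held 1910 and 124 CPM (per total count of the library). Both carry the same labels, and whether BD10_2_30 is labelled rightly could not be settled here, so every stimulated value of Mouse1592 holds that doubt. BD10_2_30 was also low in the plaque-associated genes Itgax (6.57 against 20.2 CPM in BD10_2_32) and Cst7 (13 against 36.5 CPM). The 2 sham libraries of Mouse1557 differed likewise, BD10_2_21 holding 6.21 CPM of Itgax and 19.8 CPM of Cst7 and BD10_2_7 15.3 and 38 CPM. Their Thy1 was 1060 and 1080 CPM, below the 1550 to 2270 CPM of the other sham libraries. Whether these 2 libraries are labelled rightly was not settled either. Several results that lean on Mouse1592 or on BD10_2_30 are given with and without it.

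Of 19478 genes tested, 2598 were called higher and 1855 lower in the stimulated slices, which are 13.3% and 9.52% of the genes tested (called means a Benjamini-Hochberg adjusted p under 0.05 in edgeR's quasi-likelihood test). The rises were the larger changes: 1060 called genes rose and 313 fell by a log2 fold change of at least 1, and 248 rose and 6 fell by at least 3. The median log2 fold change was 0.77 over the genes called higher, -0.47 over those called lower and -0.04 over all genes tested. Of the genes called higher, 2372 were higher in the stimulated slice of 4 of 4 mice with both slices, and of those called lower 1701 were lower in 4 of 4. The stimulated slices lay above every sham slice for 1822 genes, 9.35% of those tested, and below every sham slice for 1156 genes, 5.93%. These 2 called shares are what the counts of list members are read against. The number of genes called lower was less stable than the number called higher. It was 1110 without Mouse1564 and 1224 without Mouse1570, where 2085 and 2207 were called higher. These are bulk samples, in which fewer cells of a type and less RNA per cell cannot be told apart. The p-values measure the spread between mice within a group, and the fit holds no term that pairs the slices of a mouse.

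Cytokines rose strongly in the stimulated slices. Of 21 listed interleukins, TNF family members and colony-stimulating factors that were tested, 16 rose and none was called lower, with a median log2 fold change of 3.27. Their summed level was 271, 311, 295, 267 and 279 CPM in the sham slices and 2923, 2849, 1822, 1743 and 1281 CPM in the stimulated slices. Il1b (ENSMUSG00000027398), the secreted interleukin-1 of activated microglia, measured 1.06, 2.23, 2.14, 1.07 and 1.06 CPM in the sham slices and 740.2, 703, 358, 321 and 241 CPM in the stimulated slices (log2 fold change 8.31, SE 0.45, edgeR adjusted p = 2.79e-13). The groups did not overlap, and the lowest stimulated value was that of Mouse1592. That rank rests on BD10_2_30, which held 110 CPM per library total, against 343 CPM in BD10_2_32 and 314 CPM in the library of Mouse1572. Tnf (ENSMUSG00000024401), the prototype NF-κB-inducing cytokine, measured 17.7, 24.9, 22.8, 18.8 and 15.99 CPM in the sham slices and 219, 287, 274, 320.2 and 263 CPM in the stimulated slices (log2 fold change 3.77, SE 0.27, edgeR adjusted p = 2.02e-11). Tnf was well detected in every sham slice, and Mouse1592 lay inside the range of the other stimulated slices. Il6 (ENSMUSG00000025746), which signals through STAT3, measured 2.45, 7.52, 3.64, 1.897 and 1.59 CPM in the sham slices and 114, 90.4, 55.7, 58.96 and 21.2 CPM in the stimulated slices (log2 fold change 4.30, SE 0.38). Il12b (ENSMUSG00000004296), the p40 subunit that interleukins 12 and 23 share, measured 0.283, 0.155, 0.636, 0.495 and 0.106 CPM in the sham slices and 50.5, 40.6, 73.8, 99.6 and 25.4 CPM in the stimulated slices (log2 fold change 7.50, SE 0.65). For both, all stimulated values lay above all sham values.

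Other cytokines rose by differing amounts. Il1a, the membrane-held interleukin-1, went from 39.6–73.3 to 248–626 CPM (log2 fold change 2.92, SE 0.26). Csf1, the growth factor of microglia, rose less, from 58.6–73.5 to 92.8–135 CPM (log2 fold change 0.80, SE 0.12). Il10, the main anti-inflammatory interleukin, had no count in any sham slice and 4.28, 5.93, 3.12, 1.07 and 1.68 CPM in the stimulated slices, at least 107-fold higher against a floor of 3 counts over the sham group. The next 3 cytokines were picked out after their values were seen. Il23a, the partner subunit of Il12b in interleukin 23, went from 0–0.155 to 3.77–8.84 CPM. Csf3, the granulocyte colony-stimulating factor, went from 0.159–0.867 to 6.74–28.9 CPM. Ifnb1, which encodes interferon beta, went from 0.05296–0.674 to 3.81–7.77 CPM (log2 fold change 4.00, SE 0.50, edgeR adjusted p = 3.15e-07).

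**Figure D1:**
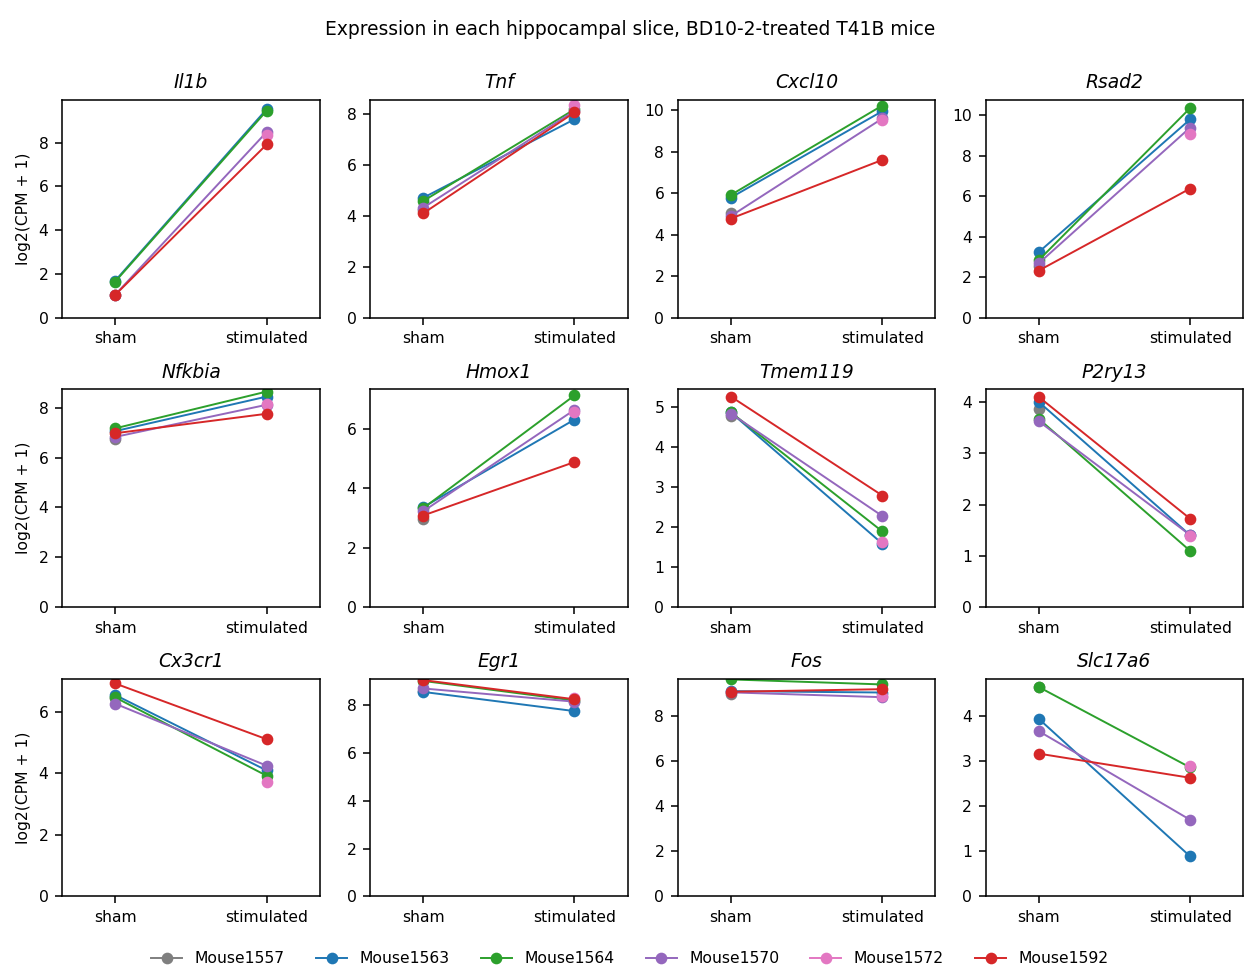
Expression of 12 genes in each hippocampal slice of BD10-2-treated T41B mice, as log2(CPM + 1), in sham and stimulated slices; points are slices and lines join the slices of a mouse. Il1b, Tnf, Cxcl10, Rsad2, Nfkbia and Hmox1 lie higher and Tmem119, P2ry13 and Cx3cr1 lower in the stimulated slice of every mouse with both, while Fos overlaps between the groups.

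Chemokines, which draw immune cells along a gradient, rose in 17 of 23 genes tested (median log2 fold change 3.49), and Cxcl12, the constitutive chemokine that keeps cells in place, was the 1 member called lower, from 19.8–30.6 to 12.4–17.7 CPM. The call on Cxcl12 was lost without Mouse1570, while 2 members were called lower without library BD10_2_30 and 2 with a replicate block for the mouse. Ccl5, a chemokine that attracts T cells and monocytes (ENSMUSG00000035042), measured 1.55, 2.44, 2.48, 1.32 and 1.48 CPM in the sham slices and 147, 211, 80.5, 114 and 27.1 CPM in the stimulated slices (log2 fold change 5.96, SE 0.44, edgeR adjusted p = 2.02e-11). Cxcl10, the ligand of Cxcr3 (ENSMUSG00000034855), measured 31.8, 54.5, 59.7, 28.9 and 26.5 CPM in the sham slices and 997, 1204, 780, 729.5 and 195 CPM in the stimulated slices (log2 fold change 4.28, SE 0.35, edgeR adjusted p = 1.489e-10). Stimulated slices lay above all sham slices for both, and Mouse1592 was the lowest of them. The macrophage inflammatory proteins Ccl3 and Ccl4 had high sham levels and rose from 36.6–94.4 to 378–1185 CPM and from 10.01–30.3 to 164–406 CPM (log2 fold change 3.49, SE 0.36 and log2 fold change 3.84, SE 0.37). The neutrophil-attracting Cxcl2 rose from 3.23–14.8 to 117–394 CPM (log2 fold change 5.07, SE 0.39) and Cxcl3 from 0–0.363 to 2.75–22.4 CPM (log2 fold change 6.98, SE 0.68). The interferon-dependent Cxcl11 was low throughout, at 0 to 0.155 CPM in sham and 0.621 to 5.63 CPM in stimulated slices.

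Of 8 chemokine receptors tested, 5 rose and 1 fell. Ccr7, the receptor with which activated myeloid cells follow Ccl19 and Ccl21, measured 0.1804, 0.5702, 0.405, 0.165 and 0 CPM in the sham slices and 26.1, 23.9, 13.7, 21.7 and 7.33 CPM in the stimulated slices (log2 fold change 6.13, SE 0.45, edgeR adjusted p = 2.02e-11). Ccrl2, a non-signalling receptor that presents chemerin, rose from 7.15–9.69 to 27.8–112 CPM. Ackr1, an atypical receptor of venules, was called higher with overlap (10.17 to 11.9 against 10.8 to 23.04 CPM). It was not called with a replicate block for the mouse (edgeR adjusted p = 0.0982) or without Mouse1563 or Mouse1572. Ccr1 averaged under 1 CPM (log2 fold change 1.51, SE 0.36; named after its value was seen). The receptor that fell was Cx3cr1.

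Genes that make vessel walls sticky for leukocytes rose with the chemokines. E-selectin (Sele) went from 0.0825–0.387 to 4.52–10.8 CPM (log2 fold change 4.78, SE 0.55, edgeR adjusted p = 7.22e-08) and P-selectin (Selp) from 0–0.722 to 3.71–10.5 CPM (log2 fold change 3.99, SE 0.65). Vcam1 measured 27.5, 36.6, 31.2, 25.98 and 23.6 CPM in the sham slices and 167, 152, 161, 143 and 64.8 CPM in the stimulated slices (log2 fold change 2.25, SE 0.20) and Icam1 21.3, 39.1, 33.98, 26.6 and 22.8 CPM in the sham slices and 116, 119.6, 123, 109.9 and 75.1 CPM in the stimulated slices (log2 fold change 1.92, SE 0.18). In both genes Mouse1592 lay below the other 4 stimulated slices and above all sham slices. Pecam1 was the remaining member of the 5 of 12 called higher, with overlapping groups (7.997 to 19.6 against 14.8 to 35.95 CPM), and its call was lost without Mouse1557, Mouse1564 or Mouse1572. The 3 members that fell were Selplg and Cx3cr1, which microglia also express, and Itga4, whose call was lost in 11 of the alternative settings. Selectins and Vcam1 bind leukocytes of the blood. Of 32 markers of these cells, 25 stayed under 1 CPM in every slice, and Csf3r, Ighm, Mrc1, F13a1, Pf4, Gzma and Gzmb, picked out by that level, did not. Of 16 markers of monocytes, neutrophils and border macrophages, 5 passed the filter on low counts. Ly6g, Retnlg and Chil3 had no count in any of the 10 samples, S100a8 and S100a9 reached at most 0.299 and 0.116 CPM, and Ccr2 went from 0 to 0.103 CPM in sham to 0.0628 to 0.448 CPM in stimulated slices. The summed level of that list was 17.2 to 22.4 CPM in sham and 6.47 to 13.5 CPM in stimulated slices. Csf3r, a member that microglia also express, was the most abundant in both groups and fell (12.9 to 17.3 against 2.83 to 7.79 CPM), and Pf4, named after its value was seen, was called higher at 0.0578 to 0.265 against 0.126 to 1.198 CPM. The call on Pf4 was lost with the replicate block (adjusted p = 0.0893 in edgeR) and without Mouse1557, Mouse1563, Mouse1564 or Mouse1570, so that no member of the list was then higher. Of 16 lymphocyte markers, 6 were tested. Ncr1 had no count in any sample, Cd3e reached at most 0.384 CPM and Ms4a1 had no count in 6 of the 10 samples, the granzymes Gzmb (0 to 0.212 against 0.0591 to 2.69 CPM) and Gzma (0 against 0.0591 to 1.146 CPM, named after its value was seen) rose and Ighm fell (13.9 to 26.5 against 3.95 to 10.3 CPM). The summed level was 15.6 to 28.4 against 6.95 to 17.1 CPM.

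Receptors of these cytokines changed in both directions. Of 21 tested, 10 rose and 3 fell. Tnfrsf1b, the TNF receptor 2 of immune cells (ENSMUSG00000028599), measured 6.52, 9.902, 9.71, 7.92 and 9.16 CPM in the sham slices and 150.1, 185, 108, 75.1 and 82.2 CPM in the stimulated slices (log2 fold change 3.80, SE 0.21, edgeR adjusted p = 2.79e-13). Tnfrsf1a, the widely expressed TNF receptor 1, rose from 13.8–18.7 to 26.3–55.01 CPM (log2 fold change 1.43, SE 0.18). Osmr, the oncostatin M receptor of astrocytes, rose from 60.6–133 to 197–360.2 CPM and Csf2rb, the common beta chain of the GM-CSF receptor, from 3.63–5.495 to 12.6–56.3 CPM. The 3 receptors that fell were Csf1r (168 to 232 against 90.4 to 130.3 CPM), on whose signalling microglia depend for survival, Csf3r (12.9 to 17.3 against 2.83 to 7.79 CPM) and Il6ra (13.4 to 19.1 against 9.17 to 13.2 CPM). In each of the 3, all stimulated values lay below all sham values.

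The sensing machinery rose in part. Of 22 Toll-like receptor, adaptor and inflammasome genes tested, 11 rose (50%, against 13.3% of all genes tested) and 2 fell (9.09%, close to the 9.52% of all genes tested). Cd14, the co-receptor that hands lipopolysaccharide to Toll-like receptor 4 (ENSMUSG00000051439), measured 20.3, 28.9, 28.1, 25.9 and 21.6 CPM in the sham slices and 605, 609, 335, 324 and 201 CPM in the stimulated slices (log2 fold change 4.06, SE 0.24, edgeR adjusted p = 6.74e-13). Tlr2 rose from 24.2–41.5 to 67.4–146 CPM. The adaptor Myd88 rose from 7.57–8.87 to 15.2–39.7 CPM and the inflammatory caspase Casp4 from 2.83–3.84 to 7.51–21.1 CPM, without overlap. The members that fell were Tlr13, a sensor of bacterial ribosomal RNA (6.82 to 9.82 against 2.198 to 6.18 CPM), and Pycard, the adaptor ASC that joins inflammasome sensors to caspase-1 (3.06 to 4.61 against 0.883 to 1.44 CPM, log2 fold change -1.54, SE 0.22, edgeR adjusted p = 3.45e-06). Pycard thus moved opposite to most other genes of its list.

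NF-κB subunits and the inhibitors that end its signalling rose together, 16 of 21 genes, with Ikbkg, the scaffold of the IκB kinase, the 1 called lower (27.6 to 32.9 against 21.4 to 28.7 CPM). Nfkbia, which encodes IκBα and is among the first genes NF-κB induces (ENSMUSG00000021025), measured 106, 133, 144, 113 and 125 CPM in the sham slices and 349, 401, 278, 280 and 216 CPM in the stimulated slices (log2 fold change 1.296, SE 0.13, edgeR adjusted p = 3.91e-09). Tnfaip3, the ubiquitin-editing enzyme A20 (ENSMUSG00000019850), measured 58.8, 78.1, 68.9, 62.6 and 81.1 CPM in the sham slices and 488, 501, 399, 315 and 229 CPM in the stimulated slices (log2 fold change 2.47, SE 0.17, edgeR adjusted p = 9.12e-12). Both feedback inhibitors were separated between the groups in every slice. Birc3, an inhibitor of apoptosis in the TNF receptor complex, rose from 5.402–10.4 to 25.03–58.4 CPM. Traf1 rose from 1.37–2.799 to 7.71–25.8 CPM and Tnip3, a partner of A20, from 0–0.207 to 1.18–27.8 CPM. Of 14 genes of the STAT3 and C/EBP branch, 11 rose. Socs3, the feedback inhibitor of interleukin-6 signalling, went from 123–182 to 265–617 CPM (log2 fold change 1.56, SE 0.16, edgeR adjusted p = 1.33e-08). Socs1 rose from 3.05–7.8 to 11.4–35.4 CPM and Cish from 4.502–6.88 to 13.2–19.8 CPM. Cebpa, the myeloid lineage factor, was the member that fell (35.2 to 55.1 against 27.2 to 33.8 CPM).

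Interferon-stimulated genes rose almost as a block, 25 of 26, with a median log2 fold change of 3.78 and none called lower. Rsad2 encodes viperin, which blocks viral replication (ENSMUSG00000020641), and measured 4.896, 8.45, 6.18, 5.44 and 4.03 CPM in the sham slices and 894, 1318, 675, 533 and 82.6 CPM in the stimulated slices (log2 fold change 6.92, SE 0.51, edgeR adjusted p = 2.02e-11). Mx1, a dynamin-like antiviral GTPase (ENSMUSG00000000386), measured 0.541, 0.259, 0.578, 0.33 and 0.318 CPM in the sham slices and 84.9, 103, 48.8, 53.6 and 10.4 CPM in the stimulated slices (log2 fold change 7.12, SE 0.53, edgeR adjusted p = 2.28e-11). Isg15, whose promoter stretch above holds the 3 overlapping matches (ENSMUSG00000035692), measured 1.44, 1.348, 1.73, 0.742 and 1.22 CPM in the sham slices and 74.1, 128, 63.3, 73.5 and 19 CPM in the stimulated slices (log2 fold change 5.73, SE 0.42). In all 3 genes Mouse1592 lay well below the other stimulated slices and still above every sham slice. Oasl1, an oligoadenylate synthetase-like protein, rose from 0.5296–2.85 to 33.7–270.1 CPM and Gbp2, a guanylate-binding GTPase, from 7.29–12.02 to 78.4–498 CPM. Ifit1, named for its promoter after its values were seen, measured 6.597, 8.66, 9.94, 4.29 and 6.78 CPM in the sham slices and 406, 376.9, 305, 207 and 81.1 CPM in the stimulated slices (log2 fold change 5.23, SE 0.40). Summed over the 26 genes, the sham slices held 234, 251, 294, 220.2 and 266 CPM and the stimulated slices 4094, 5613, 3536, 3290 and 886 CPM. Mouse1592 was thus the lowest stimulated slice in this sum by a wide gap, whereas its Tnf level was like theirs, and the low value was found in both of its stimulated libraries (Ifit1 27.9 CPM in BD10_2_30 and 123 CPM in BD10_2_32, per library total). The count of members called higher was also 25 without BD10_2_30 and 25 when any 1 mouse, Mouse1592 included, was left out.

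Genes of antigen presentation followed, 17 of 18 with none called lower (median log2 fold change 1.57). With the replicate block 13 were called higher, and the class II chains H2-Ab1 and H2-Eb1, the invariant chain Cd74 and the immunoproteasome subunit Psmb9 were not (adjusted p = 0.331, 0.6455, 0.1501 and 0.1019 in edgeR; named after their values were seen). The groups overlapped in the 3 class II genes, of which Cd74 measured 18.8, 36.3, 113, 32.7 and 39.9 CPM in the sham slices and 54.3, 102, 102, 319.8 and 44.5 CPM in the stimulated slices, and their calls were lost without Mouse1572, the highest stimulated slice, as well as without Mouse1557 or Mouse1570. When 1 mouse was left out the count was 14 to 18. Cd274, the checkpoint ligand PD-L1 (ENSMUSG00000016496), measured 9.95, 16.6, 19.5, 8.496 and 7.89 CPM in the sham slices and 459.8, 731, 459.7, 415 and 86.4 CPM in the stimulated slices (log2 fold change 5.11, SE 0.41, edgeR adjusted p = 1.054e-10). Cd40, the co-stimulatory receptor of antigen-presenting cells, rose from 0.207–0.347 to 2.098–23.3 CPM. Tap1, the peptide transporter of the class I pathway, rose from 6.52–10.3 to 28.2–124 CPM and Ciita, the master regulator of class II genes, from 0.165–0.52 to 0.975–7.91 CPM, both without overlap. The class I heavy chain H2-D1 rose from 90.5–195 to 169.8–423 CPM with overlapping groups (log2 fold change 1.21, SE 0.24, edgeR adjusted p = 0.000408), and as a member of a family of near-identical genes its counts are uncertain.

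**Figure D2:**
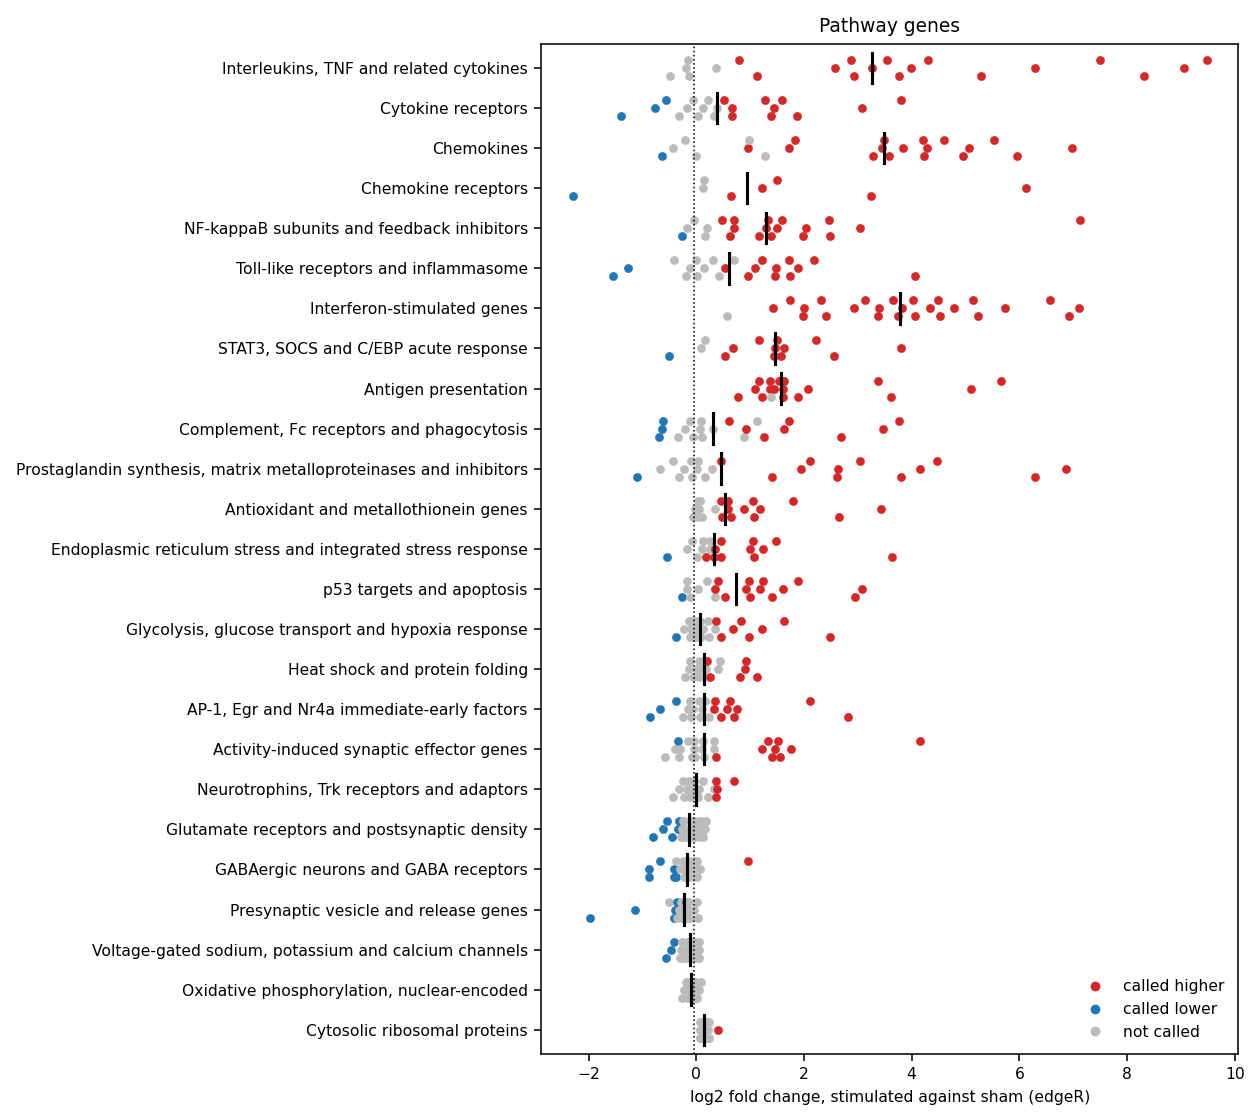
Log2 fold change of stimulated against sham slices for the tested members of 25 pathway lists in BD10-2-treated T41B mice; each point is a gene, colour shows the edgeR call, black bars are list medians and the dotted line is the median of all genes tested (-0.04). Cytokines, chemokines and interferon-stimulated genes have medians above 3, and the lists of glutamate receptors, GABA genes, presynaptic genes and ion channels have medians below 0.

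Homeostatic microglia genes fell. Of 16 tested, 12 were called lower and none higher, and the median log2 fold change was -0.89. P2ry13, an ADP receptor that keeps microglial processes branched (ENSMUSG00000036362), measured 13.7, 15.1, 11.8, 11.4 and 16.2 CPM in the sham slices and 1.64, 1.14, 1.65, 1.63 and 2.31 CPM in the stimulated slices (log2 fold change -2.99, SE 0.23, edgeR adjusted p = 5.20e-11). Cx3cr1, the receptor for neuronal fractalkine (ENSMUSG00000052336), measured 87.7, 92.95, 88, 76.2 and 121 CPM in the sham slices and 16.1, 14.2, 18.1, 12.1 and 33.7 CPM in the stimulated slices (log2 fold change -2.29, SE 0.21, edgeR adjusted p = 7.736e-10). The stimulated slices lay below all sham slices in both genes, and in Cx3cr1 the highest stimulated value belonged to Mouse1592. Selplg, the P-selectin ligand, fell from 41.9–60.5 to 9.86–18.1 CPM. P2ry12, the ADP receptor of microglial chemotaxis, fell from 20.8–39.1 to 4.27–10.8 CPM and Gpr34, a lysophosphatidylserine receptor, from 3.63–14.7 to 0.816–2.57 CPM. Bin1, which neurons and oligodendrocytes express too, was not called (169.7 to 231 against 149 to 209.9 CPM).

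Genes common to all microglia moved in both directions. Of 15 general microglia and macrophage genes, 2 rose, the same 13.3% as among all genes tested, and 4 fell, 26.7% against 9.52% (median log2 fold change 0.013), and their summed level was 942 to 1304 CPM in sham and 835 to 1256 CPM in stimulated slices. The complement chain C1qb stood at 96.4 to 137 against 95.8 to 152 CPM and Ctss, cathepsin S, at 154 to 214 against 164 to 269 CPM, neither called. Ptprc, the leukocyte antigen CD45, and Fcer1g, an adaptor of Fc receptors, were called higher (17.7 to 31.1 against 25.6 to 63.5 CPM and 16 to 23.5 against 19.7 to 38.2 CPM), each with overlap, and both calls were lost without Mouse1564, and that on Fcer1g also without Mouse1557 or Mouse1563. Csf1r, Itgam, the integrin CD11b (47.6 to 70.4 against 26.5 to 50.8 CPM), Aif1, which encodes Iba1 (7.21 to 10.8 against 3.98 to 5.87 CPM), and Ly86 fell, the last with a call lost in 11 alternative settings. No gene of this list was called higher without Mouse1564, and 4 were with a replicate block for the mouse. Of 21 plaque-associated microglia genes 7 were higher (33.3%, against 13.3% of all genes tested) and 2 lower, the same 9.52% as among all genes tested. Lgals3, galectin-3 (ENSMUSG00000050335), measured 2.5, 3.42, 3.24, 2.39 and 2.38 CPM in the sham slices and 30.2, 64.7, 24.7, 35.1 and 12.9 CPM in the stimulated slices (log2 fold change 3.58, SE 0.36, edgeR adjusted p = 6.09e-09). Cd63 rose from 49.6–63.2 to 79.4–148 CPM, whereas Apoe, the most abundant gene of the list, was not called (1472 to 1858 against 1706 to 2555 CPM). Ank fell from 159–186 to 131–155 CPM, and Ctsd, cathepsin D, was called lower with overlap (552 to 752 against 335 to 615 CPM), a call lost without library BD10_2_30, without BD10_2_7 (a sham library of Mouse1557) and without Mouse1570, Mouse1572 or Mouse1592. Leaving out BD10_2_30, Mouse1570, Mouse1572 or Mouse1592 left 1 of the 2 lower calls.

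Of 15 purine receptors and related genes 6 rose and 3 fell. The ADP receptors P2ry12 and P2ry13 fell, as did P2ry14, named after its value was seen (0.726 to 1.45 against 0.236 to 0.548 CPM). P2ry2, an ATP and UTP receptor, rose from 1.85–4.12 to 10.6–20.4 CPM (log2 fold change 2.38, SE 0.20, edgeR adjusted p = 3.788e-10) and P2ry6, the UDP receptor that triggers phagocytosis, from 2.72–4.29 to 11.99–21.6 CPM (log2 fold change 2.34, SE 0.22, edgeR adjusted p = 1.34e-09). The adenosine receptors Adora2a (0.747 to 1.45 against 1.18 to 5.15 CPM) and Adora3 (1.73 to 2.81 against 1.21 to 10.4 CPM) were called higher with overlap, and the neuronal Adora1 was not called (169 to 237 against 158 to 214 CPM). Among 21 complement, Fc receptor and phagocytosis genes 8 rose and 3 fell. The scavenger receptor Msr1 rose from 0.212–0.985 to 2.98–13.8 CPM (log2 fold change 3.76, SE 0.41). C5ar1, the receptor for the anaphylatoxin C5a, rose from 5.19–6.74 to 17.02–21.99 CPM (log2 fold change 1.72, SE 0.16). The activating Fcgr4 rose from 0.309–0.578 to 0.591–5.03 CPM and complement factor B (Cfb) from 0.05296–0.33 to 0.532–2.51 CPM. Fcgr3 fell from 21.03–28.97 to 10.96–20.3 CPM and Itgam fell as above.

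Prostaglandin synthesis and matrix proteases rose, 12 of 23 tested with 1 lower. Ptgs2, the inducible cyclooxygenase COX-2 of neurons and myeloid cells (ENSMUSG00000032487), measured 26.5, 34.9, 23.7, 25.98 and 23.04 CPM in the sham slices and 709, 646, 419, 450.1 and 156 CPM in the stimulated slices (log2 fold change 4.15, SE 0.33, edgeR adjusted p = 9.44e-11). Ptgs1, the constitutive COX-1 that microglia express, fell from 14.04–20.3 to 5.65–10.5 CPM (log2 fold change -1.11, SE 0.15, edgeR adjusted p = 1.29e-06). The pair thus moved in opposite directions, each without overlap. The stromelysin Mmp3 rose from 0.0515–0.165 to 1.68–18.7 CPM. The collagenase Mmp13 rose from 0–0.289 to 1.95–14.6 CPM and the macrophage elastase Mmp12 from 0.283–0.825 to 4.25–19 CPM, as did Timp1, an inhibitor of these proteases, from 0.247–0.794 to 4.58–11.8 CPM. The more abundant Timp2 was not called (108 to 182 against 98.1 to 129 CPM).

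Stress programmes rose to differing degrees. Of 20 antioxidant and metallothionein genes 12 rose and none fell (median log2 fold change 0.53). Hmox1, heme oxygenase 1 (ENSMUSG00000005413), measured 6.73, 9.28, 9.01, 8.33 and 7.47 CPM in the sham slices and 78.5, 139, 98.9, 95.1 and 28.5 CPM in the stimulated slices (log2 fold change 3.43, SE 0.37, edgeR adjusted p = 2.72e-08). Slc7a11, the cystine importer that exports glutamate in return (ENSMUSG00000027737), measured 59.9, 83.1, 74.8, 47.8 and 46.6 CPM in the sham slices and 439, 474, 479, 363 and 199 CPM in the stimulated slices (log2 fold change 2.64, SE 0.21, edgeR adjusted p = 9.16e-11). Txnrd1, thioredoxin reductase, rose from 59.6–76.4 to 185–291 CPM and the metallothionein Mt2 from 104–141 to 214–338 CPM. Of 19 endoplasmic reticulum stress genes 11 rose and 1, the chaperone cofactor Sdf2l1, fell (6.27 to 8.47 against 4.18 to 6.17 CPM). The risers with the largest changes belong to the ATF4 branch: Trib3 (0.05296 to 0.462 against 2.07 to 4.97 CPM), Chac1 (2.49 to 2.95 against 5.23 to 11.3 CPM), Ppp1r15a, the GADD34 subunit that ends the stress block on translation (56.1 to 83.2 against 125 to 202 CPM), and Sesn2 (14.6 to 19.1 against 27.1 to 49.6 CPM). The chaperone Hspa5 (BiP) changed little, with overlapping groups (235 to 316 against 295 to 388 CPM, log2 fold change 0.34, SE 0.10), and its call was lost without Mouse1557. Of 19 heat-shock genes 6 rose, among them Bag3 (29.6 to 50.1 against 68.2 to 105 CPM), Hspa1a (23.4 to 34.8 against 34.8 to 72.8 CPM) and Hspa1b (19.9 to 24.04 against 34.5 to 57.2 CPM), a near-identical pair whose separate counts are uncertain. The constitutive Hspa8 was not called (1027 to 1150 against 1097 to 1303 CPM).

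Of 20 p53 target and apoptosis genes 13 rose and Sesn1 fell (42.2 to 45.97 against 32.7 to 40.6 CPM, a call lost without Mouse1564, Mouse1570 or Mouse1572). The cell-cycle inhibitor Cdkn1a (p21) rose from 22.2–39.9 to 54.9–140.5 CPM (log2 fold change 1.62, SE 0.20, edgeR adjusted p = 3.14e-07). The death receptor Fas rose from 2.01–4.09 to 13.4–27.8 CPM (log2 fold change 2.95, SE 0.23) and the survival factor Mcl1 from 124–146 to 149–199 CPM (log2 fold change 0.35, SE 0.08). Bcl2a1d and Bcl2a1a, anti-apoptotic NF-κB targets of a near-identical family and thus uncertain, rose too (0.9899 to 2.31 against 11.4 to 14.9 CPM and 1.75 to 2.49 against 5.84 to 10.1 CPM). Energy metabolism changed at a few points. Of 28 glycolysis and hypoxia genes 8 rose, led by Hk2, the inducible hexokinase (14.8 to 22.03 against 49.1 to 153 CPM, log2 fold change 2.49, SE 0.21, edgeR adjusted p = 2.093e-10), and Pfkfb3, which makes the activator of phosphofructokinase (40.7 to 49.7 against 91.5 to 186 CPM, log2 fold change 1.63, SE 0.14, edgeR adjusted p = 2.316e-10). The lactate carrier Slc16a1 (34.2 to 42.9 against 50.6 to 98.4 CPM) and the glucose carrier Slc2a1 (59.6 to 85.3 against 88.7 to 156 CPM) rose, whereas Aldoa and Gapdh, the most abundant enzymes of the list, were not called (738 to 862 against 659.9 to 859 CPM and 661 to 752 against 630 to 747 CPM). Pdk4 rose (17.9 to 30.5 against 49.96 to 73.6 CPM) and its paralog Pdk1 fell (35.6 to 43.9 against 29.9 to 31.4 CPM), both kinases that shut pyruvate dehydrogenase. None of 30 nuclear-encoded oxidative phosphorylation genes was called in edgeR's test (median log2 fold change -0.096), though 1 was lower with the replicate block and 3 were without library BD10_2_30. None of 13 mitochondrially encoded genes was called either, though 5 were higher with a replicate block for the mouse, mt-Co1 among them (8200 to 15430 against 10220 to 21880 CPM). Of 25 sterol and lipid genes, Ch25h, whose product 25-hydroxycholesterol is antiviral, rose most (3.65 to 5.599 against 14.9 to 31.2 CPM, log2 fold change 2.46, SE 0.23, edgeR adjusted p = 1.67e-09), and the cholesterol exporter Abca1 rose from 113–151 to 188–380.5 CPM.

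**Figure D3:**
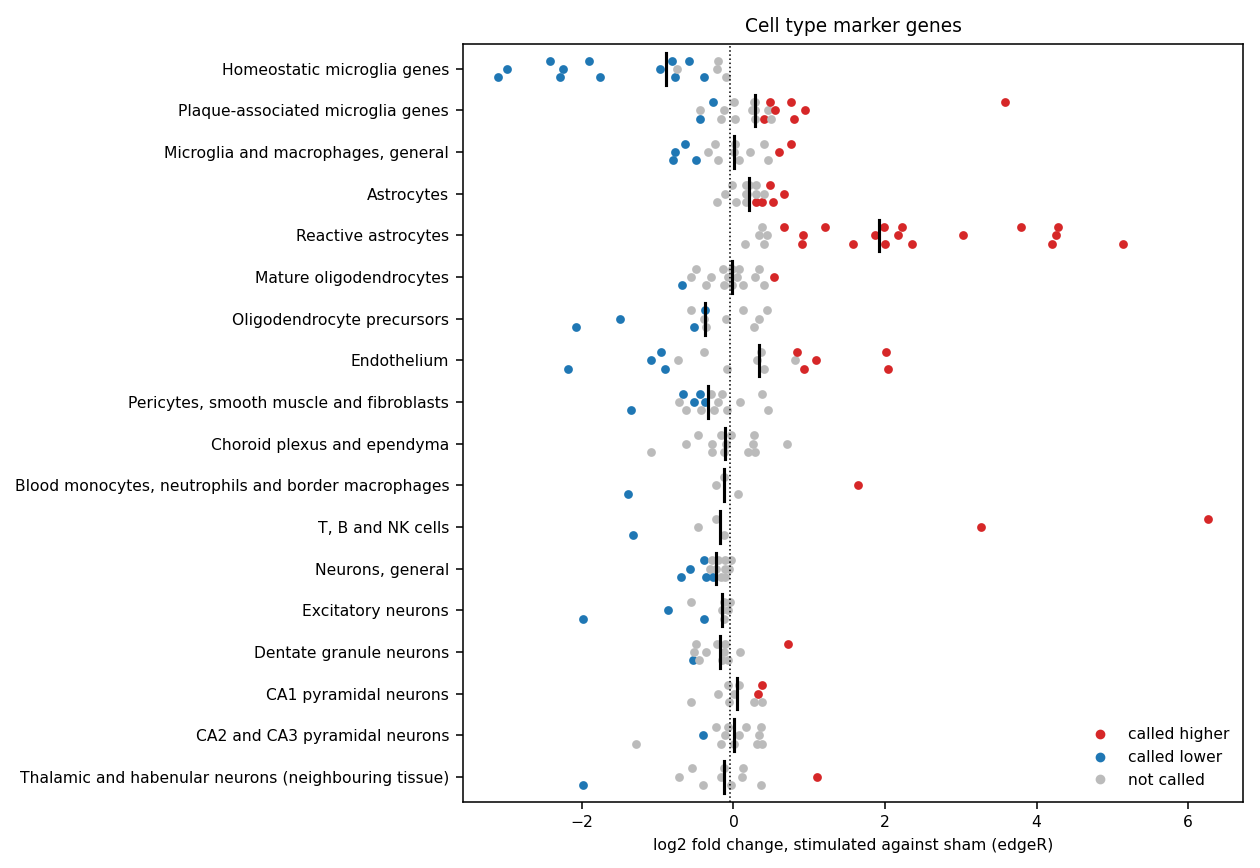
Log2 fold change of stimulated against sham slices for the tested markers of 18 cell type lists in BD10-2-treated T41B mice; each point is a gene, colour shows the edgeR call, black bars are list medians and the dotted line is the median of all genes tested (-0.04). Homeostatic microglia markers lie mostly below 0, reactive astrocyte markers mostly above, and neuronal markers slightly below.

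Genes of reactive astrocytes rose. Of 22 reactive-astrocyte genes 17 rose and none fell (median log2 fold change 1.93), although several of them, such as Cxcl10 and Gbp2, are expressed by microglia and vessels too. Steap4, a metalloreductase, measured 0.438, 0.726, 0.462, 1.07 and 0.689 CPM in the sham slices and 10.5, 18.2, 14.7, 13.9 and 4.31 CPM in the stimulated slices (log2 fold change 4.25, SE 0.39, edgeR adjusted p = 1.17e-09). Ptx3, the long pentraxin, measured 3.92, 11.3, 8.78, 3.38 and 4.13 CPM in the sham slices and 149, 166, 114, 109 and 44.1 CPM in the stimulated slices (log2 fold change 4.20, SE 0.39, edgeR adjusted p = 1.15e-09). Lcn2, lipocalin 2, rose from 1.16–2.75 to 5.67–13.6 CPM. No slice of the stimulated group fell within the sham range for these 3 genes. Of 17 general astrocyte markers 5 rose and none fell. The gap junction protein Gja1 went from 184–229.8 to 242–374 CPM (log2 fold change 0.48, SE 0.10, edgeR adjusted p = 0.000595), the water channel Aqp4 was called higher with overlap (129 to 223 against 212 to 396 CPM), and so was the lineage factor Sox9 (82.5 to 121 against 117 to 186 CPM). Clu (804 to 989 against 958 to 1515 CPM) and Slc1a3, named after its value was seen (549 to 651 against 656 to 873 CPM), completed the 5, and the call on Clu was lost without Mouse1557, Mouse1563 or Mouse1564, each of which left 3 of the 5 calls. The glutamate transporter Slc1a2 and the intermediate filament Gfap were not called (4834 to 6006 against 5646 to 7080 CPM and 1422 to 2161 against 1771 to 3252 CPM), but with the replicate block their adjusted p in edgeR was 0.0237 and 0.0474 and 8 of the 17 markers were called higher.

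Vascular genes divided. Of 16 endothelial markers 5 rose and 4 fell. Cdh5, the VE-cadherin of endothelial junctions (ENSMUSG00000031871), measured 15.6, 20.8, 18.9, 25.7 and 8.58 CPM in the sham slices and 67.3, 92.9, 86.9, 92.99 and 27.7 CPM in the stimulated slices (log2 fold change 2.04, SE 0.40, edgeR adjusted p = 0.000247). Erg, an endothelial transcription factor, rose from 2.22–6.43 to 8.72–22.03 CPM, and Esam from 4.08–7.75 to 6.83–14.8 CPM with overlap. Slco1a4, an organic anion carrier of the blood-brain barrier (ENSMUSG00000030237), measured 12.4, 16.9, 10.6, 12.6 and 12.1 CPM in the sham slices and 2.69, 2.16, 2.59, 1.57 and 4.79 CPM in the stimulated slices (log2 fold change -2.18, SE 0.31, edgeR adjusted p = 2.65e-06). Itm2a fell from 9.74–12.7 to 4.25–7.12 CPM, and Ly6c1 (7.65 to 15.2 against 4.58 to 6.597 CPM) and Tek, the angiopoietin receptor (4.46 to 8.66 against 2.09 to 4.13 CPM), also fell, each with a call lost without Mouse1563 or Mouse1570, which left 2 lower calls. Slc22a8, another anion carrier of the barrier, had 1 of the 12 largest falls of all genes (3.02 to 4.77 against 0.2397 to 1.15 CPM, log2 fold change -2.44, SE 0.36). Of 16 mural and fibroblast markers 5 fell and none rose, among them Vtn (27.9 to 35.9 against 17.4 to 23.1 CPM, log2 fold change -0.67, SE 0.17, edgeR adjusted p = 0.00384) and, less stably, Pdgfrb (24.5 to 26.2 against 16.04 to 23.8 CPM) and Col1a2 (1.91 to 4.29 against 0.847 to 2.07 CPM). Both of the latter calls were lost without Mouse1563, Mouse1570 or Mouse1592, and the count of lower calls was 2, 2 and 3 without them. The summed level of the mural list was 243 to 268 CPM in sham and 196 to 235 CPM in stimulated slices.

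A few genes of oligodendrocyte precursors fell, 4 of 12 markers. Neu4, a sialidase (ENSMUSG00000034000), measured 5.695, 5.18, 5.78, 5.11 and 9.32 CPM in the sham slices and 0.647, 0.659, 1.296, 1.95 and 2.6 CPM in the stimulated slices (log2 fold change -2.07, SE 0.26, edgeR adjusted p = 3.35e-07). Gpr17, a receptor of committed precursors, measured 14.7, 9.85, 9.13, 16.99 and 25.3 CPM in the sham slices and 4.23, 3.77, 4.71, 4.39 and 9.19 CPM in the stimulated slices (log2 fold change -1.50, SE 0.24, edgeR adjusted p = 2.43e-05), with 1 stimulated slice inside the sham range. Pdgfra, the growth factor receptor of precursors, fell from 54.2–67.1 to 39.8–50.4 CPM and Cspg4, the NG2 proteoglycan, from 41.9–44.4 to 31.4–35.7 CPM (a call lost without Mouse1563 or Mouse1570). The summed level of the list was 502 to 686 against 576 to 834 CPM, and its most abundant members, Bcas1 and Olig1, were not called (199 to 299.7 against 284 to 516 CPM and 76.5 to 123 against 56.2 to 100.4 CPM). With the replicate block the adjusted p of Olig1 was 0.0422 (edgeR). Of 17 myelin genes 1 rose (Opalin, 16.9 to 26.5 against 27.04 to 43.8 CPM) and 1 fell (Fa2h, 20.8 to 36.3 against 12.7 to 26.1 CPM), 5.88% in each direction and under the shares among all genes tested, and Mbp was not called (2594 to 3977 against 3406 to 6644 CPM). The call on Fa2h was lost whichever mouse was left out, and that on Opalin without Mouse1563, Mouse1564 or Mouse1570.

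The transcription factors that theta bursts are used to induce moved in both directions at the time of freezing. Of 22 AP-1, Egr and Nr4a factors 9 rose and 3 fell (median log2 fold change 0.13), 40.9% and 13.6% of the list against 13.3% and 9.52% of all genes tested. Fos (ENSMUSG00000021250) measured 502, 539.9, 774, 520.1 and 529.7 CPM in the sham slices and 518, 663, 448, 470.1 and 574 CPM in the stimulated slices (log2 fold change -0.1, SE 0.14, edgeR adjusted p = 0.666). Npas4, the factor most tightly bound to neuronal depolarisation, measured 25.7, 34.6, 40.04, 24.5 and 23.7 CPM in the sham slices and 22.5, 26.7, 33.6, 33.8 and 37.1 CPM in the stimulated slices (log2 fold change 0.051, SE 0.25, edgeR adjusted p = 0.912). Nr4a1 measured 148, 149, 215, 172 and 154 CPM in the sham slices and 164, 205, 151, 181 and 198 CPM in the stimulated slices (log2 fold change 0.10, SE 0.13, edgeR adjusted p = 0.613). The groups overlapped throughout for these 3 genes, which were well detected in every sham slice. Egr1 (ENSMUSG00000038418) measured 392, 379, 522, 418 and 534 CPM in the sham slices and 216, 294, 285, 314 and 305 CPM in the stimulated slices and fell in 4 of 4 mice (log2 fold change -0.67, SE 0.12), as did Fosb (253 to 360.5 against 132 to 198 CPM), while Btg2 was called lower with overlap (32.1 to 55.3 against 30.3 to 34.5 CPM), a call lost without Mouse1564, Mouse1572 or Mouse1592. The risers with the largest changes were Fosl1, an AP-1 subunit of growth factor and stress responses (5.36, 5.75, 6.18, 4.62 and 2.06 CPM in the sham slices and 29.4, 51.2, 35.05, 33.8 and 20.8 CPM in the stimulated slices; log2 fold change 2.82, SE 0.25, edgeR adjusted p = 5.951e-10), and Ier3, a target of NF-κB (18.1 to 23.3 against 57.1 to 126 CPM). Atf3, a factor of injured cells, rose from 40.7–61.5 to 63.9–104 CPM.

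Effectors of synaptic plasticity were more often called higher than lower, with 9 of 24 higher (37.5%, against 13.3% of all genes tested) and 1 lower (4.17%, against 9.52%). Their summed level was 2575 to 3140 CPM in sham and 3330 to 3713 CPM in stimulated slices, and the list holds Ptgs2, which is described above. Arc, the dendritic regulator of AMPA receptors, measured 210.3, 138, 283, 232 and 282 CPM in the sham slices and 126, 203, 209, 302 and 266 CPM in the stimulated slices (log2 fold change -0.05, SE 0.21, edgeR adjusted p = 0.897). Bdnf, the ligand of TrkB, measured 29.4, 31.5, 28.7, 34.1 and 29.1 CPM in the sham slices and 39.8, 32.96, 43.2, 35.04 and 40.4 CPM in the stimulated slices (log2 fold change 0.33, SE 0.13, edgeR adjusted p = 0.0699). Arc was lower in the stimulated slice of 4 of 4 mice and Bdnf higher in 4 of 4, but neither was called. Inhba, which encodes activin A, rose from 4.54–7.94 to 13.8–24.7 CPM (log2 fold change 1.76, SE 0.24, edgeR adjusted p = 1.61e-06). Crem, a cyclic-AMP-responsive repressor, rose from 6.93–7.93 to 16.8–25.7 CPM and Gadd45g from 24.7–33.6 to 55.3–112 CPM. Nrn1, the growth-promoting neuritin, was the member that fell, with overlap (76.2 to 94.3 against 54.8 to 80.8 CPM). It was not called in the 4 mice with both slices alone, and with the replicate block 4 members were called lower. Of 20 MAP kinase phosphatases and Klf factors 8 rose (40%, against 13.3% of all genes tested) and 1 fell (5%, under the 9.52% of all genes tested). Dusp2, a phosphatase of immune cells, rose most (1.59 to 3.32 against 13.8 to 37.9 CPM, log2 fold change 3.35, SE 0.25, edgeR adjusted p = 2.02e-11), followed by Dusp10 (9.21 to 16.2 against 20.8 to 42.4 CPM), Spry2 (49.7 to 65.7 against 89.2 to 141 CPM) and Klf6 (70.5 to 129 against 114 to 193 CPM).

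The receptors that BD10-2 acts on were not called in either direction. Ntrk2 (TrkB, ENSMUSG00000055254) measured 648, 686, 702, 605 and 659 CPM in the sham slices and 722, 730, 648, 643 and 646 CPM in the stimulated slices (log2 fold change 0.038, SE 0.076, edgeR adjusted p = 0.762). Ntrk3 (TrkC, ENSMUSG00000059146) measured 350.1, 403, 314, 369.6 and 367 CPM in the sham slices and 335, 258, 305, 287 and 326 CPM in the stimulated slices (log2 fold change -0.26, SE 0.12, edgeR adjusted p = 0.1398). Stimulated slices held less Ntrk3 in 4 of 4 mice, but the groups overlapped. Ntf3, the ligand of TrkC, stood at 2.94 to 4.82 against 1.94 to 3.64 CPM and was not called. Of 18 neurotrophin genes tested 4 rose, among them the adaptors Shc1 (13.4 to 15.7 against 15.1 to 21.5 CPM) and Gab1 (51.1 to 67.7 against 62.6 to 99.7 CPM) and the sorting receptor Sorcs3 (46.8 to 51.2 against 56.9 to 70.3 CPM). The count was 2 with the replicate block, 2 without Mouse1563 or Mouse1564 and 1 without Mouse1570. No member was called lower with all mice, but Sorcs1 was with the replicate block (adjusted p = 0.0466 in edgeR) and the adaptor Shc2 was without library BD10_2_30 or without Mouse1592 (adjusted p = 0.0108 and 0.00435 in edgeR), both named after their values were seen. App (ENSMUSG00000022892) measured 1120, 1002, 1070, 1179 and 1159 CPM in the sham slices and 953, 1121, 1134, 1188 and 1148 CPM in the stimulated slices and was not called (log2 fold change 0.004, SE 0.072, edgeR adjusted p = 0.977). Among 17 APP processing genes 1 was called higher and 1, the beta-secretase Bace1, lower, with overlap (77.8 to 92.5 against 66.04 to 80.1 CPM). That is 5.88% in each direction, under the 13.3% and 9.52% of all genes tested, and without Mouse1563 or without Mouse1570 neither call was made. The call on Bace1 was also lost without library BD10_2_30 and without Mouse1557, Mouse1564 or Mouse1572.

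Neuronal transcripts were slightly lower. All 15 general neuron markers had a negative log2 fold change (median -0.22, against -0.04 over all genes tested), 5 were called lower, and their summed level was 6237, 6726, 6126, 6849 and 7134 CPM in sham and 5101, 4931, 6053, 5793 and 6046 CPM in stimulated slices. Syt1, the calcium sensor of vesicle release (ENSMUSG00000035864), measured 856, 837, 732, 811 and 820.3 CPM in the sham slices and 579, 493, 679, 669 and 724 CPM in the stimulated slices (log2 fold change -0.37, SE 0.10, edgeR adjusted p = 0.0102). Snap25, a subunit of the fusion machinery, fell from 644–855 to 439.5–635 CPM. Tubb3 fell from 84.8–100.3 to 44.5–77.4 CPM and the RNA-binding protein Elavl4 from 17.1–30.5 to 12.8–14.9 CPM. Map2 was lower with overlap (1362 to 1573 against 1052 to 1404 CPM). Of the 5 calls, 3 were made without Mouse1557, 1 without Mouse1563 and 2 without Mouse1564. Of 28 presynaptic genes 6 were called lower (21.4%, against 9.52% of all genes tested) and none higher. With the replicate block 17 were lower, and without Mouse1557, Mouse1563, Mouse1564 or Mouse1570 the count was 2, 1, 2 and 3. The abundant Bsn and Slc17a7, the vesicular glutamate transporter of hippocampal neurons, were not called (1039 to 1452 against 806 to 1486 CPM and 755 to 1048 against 642 to 1002 CPM).

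Larger falls lay in genes of particular neurons. Slc17a6, the vesicular glutamate transporter 2 (ENSMUSG00000030500), measured 23.8, 14.3, 23.9, 11.6 and 7.94 CPM in the sham slices and 0.847, 6.23, 2.24, 6.34 and 5.17 CPM in the stimulated slices (log2 fold change -1.98, SE 0.50, edgeR adjusted p = 0.00402). Tbr1, a transcription factor of glutamatergic neurons, measured 44.4, 52.5, 52.2, 40.7 and 42.3 CPM in the sham slices and 20.8, 22.1, 23.3, 28.9 and 32.6 CPM in the stimulated slices (log2 fold change -0.86, SE 0.15, edgeR adjusted p = 4.17e-05). Grm2, the presynaptic metabotropic glutamate receptor 2, measured 49.5, 52.7, 53.7, 57.2 and 61.1 CPM in the sham slices and 31.3, 30.8, 23.03, 21.7 and 48.9 CPM in the stimulated slices (log2 fold change -0.81, SE 0.17, edgeR adjusted p = 0.000837). No stimulated slice of these genes reached the lowest sham slice, though the stimulated slice of Mouse1592 came close to it in Grm2, and the sham slice of Mouse1592 was the lowest in Slc17a6. Slc17a6 also marks thalamus and habenula, which border the hippocampus. The 12 markers of that tissue summed to 193 to 217 CPM in sham and 173 to 215 CPM in stimulated slices. Of the 11 tested, 9.09% in each direction were called: Slc17a6 fell, Ramp3 rose (1.42 to 1.85 against 2.65 to 4.55 CPM) and 9, including Rora (58.8 to 86.8 against 71.8 to 91.7 CPM), were not called, and the part of dissection in the result was not tested. Of 27 glutamate receptor and postsynaptic genes 6 fell (22.2%, against 9.52% of all genes tested) and none rose, including the AMPA receptor subunit Gria4 (35.1 to 49.8 against 23.8 to 32.5 CPM) and the kainate receptor subunit Grik3 (58.4 to 74.8 against 38.95 to 48.2 CPM). The abundant Camk2a and Shank1 were not called (3003 to 4456 against 2943 to 4285 CPM and 1250 to 1887 against 1147 to 2202 CPM). Of 24 GABA genes 6 fell (25%), among them Lamp5, a marker of neurogliaform interneurons (12.7 to 25.2 against 7.54 to 12.7 CPM, log2 fold change -0.87, SE 0.16, edgeR adjusted p = 0.000108), the receptor subunit Gabra3 (22.02 to 40.9 against 15.3 to 19.9 CPM) and Vip (2.86 to 4.45 against 1.12 to 2.45 CPM). The calls on Gabra3 and Vip were lost without Mouse1563 and Mouse1564, respectively. Npy was the GABA gene that rose, with overlap (5.89 to 7.65 against 6.36 to 22.7 CPM, log2 fold change 0.95, SE 0.21, edgeR adjusted p = 0.00141). Of 28 voltage-gated channels 3 fell, a share close to the 9.52% of all genes tested that were called lower, and none rose: the potassium channels Kcna2 (191, 169.8, 174, 160 and 169.9 CPM in the sham slices and 108, 102, 123, 119 and 135 CPM in the stimulated slices; log2 fold change -0.56, SE 0.094, edgeR adjusted p = 4.02e-05) and Kcnh1 (57.9 to 70.01 against 40.7 to 53.9 CPM) and the sodium channel Scn1a (89.3 to 109 against 60.9 to 88.4 CPM), which was not called in the 4 mice with both slices alone.

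Few markers of the hippocampal fields were called, at 0% to 8.33% lower and 0% to 20% higher by list. In the dentate list Glis3 rose (54.5 to 64.8 against 80.8 to 122 CPM, log2 fold change 0.71, SE 0.13, edgeR adjusted p = 8.31e-05), Calb1 was called lower with overlap (47.4 to 61.95 against 25.6 to 47.5 CPM, a call lost without Mouse1563, Mouse1564 or Mouse1572) and Prox1 was not called (128 to 180.2 against 87.9 to 154 CPM). Without library BD10_2_30, 2 members of the dentate list were called lower. In CA1, Fibcd1 (66.5 to 117 against 110.2 to 133 CPM) and Man1a (55.3 to 81.4 against 75.7 to 95.2 CPM) were called higher, and neither call held without Mouse1564 or without Mouse1572. The call on Fibcd1 was also lost with the replicate block, without library BD10_2_30 and without Mouse1557, Mouse1563 or Mouse1592, and that on Man1a without Mouse1570. In CA2 and CA3, Pcp4 was called lower (24.99 to 36.9 against 15.3 to 28.7 CPM), a call lost with the replicate block (adjusted p = 0.0668 in edgeR) and without Mouse1563, Mouse1564, Mouse1570 or Mouse1572, and Rgs14 was not called (44.7 to 78.7 against 70.3 to 82.6 CPM) except with that block (adjusted p = 0.0169 in edgeR). Leaving out library BD10_2_30 gave 2 lower calls in the CA2 and CA3 list.

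Some of the largest changes lay outside these lists. Among the 12 largest rises were Ifi205, an interferon-induced gene of a family of close copies (0.0258 to 0.577 against 4.88 to 63.8 CPM, log2 fold change 8.32, SE 0.69), and, at low counts, Slfn4 and the acute-phase gene Saa3. Slfn4 had 659 counts in the stimulated and 3 in the sham group, a ratio of 226 after scaling (95% exact interval 76.9 to 1100, counting error only), and Saa3 had 257 and 1, a ratio of 264 (47 to 10500). Slfn4 had no count in 1 stimulated slice, so its groups overlapped. The predicted genes Gm26244 and Gm45837 had no sham count and counts in 1 and 3 of the 5 stimulated slices, and both are uncertain, as are the predicted genes Gm38073, Gm37717 and AC102342.2 among the 12 largest falls. Also among these were Bmp3, a bone morphogenetic protein (1.81 to 10.5 against 0.419 to 1.596 CPM), Mlph, a melanosome transport protein (2.85 to 5.98 against 0.377 to 1.27 CPM), and Igfn1 (0.6599 to 16.6 against 0.294 to 1.76 CPM, a call lost without Mouse1564). Igkc, the immunoglobulin kappa chain of plasma cells, was called lower on the strength of 1 sham slice (10.1, 0, 0.0578, 0 and 0.159 CPM in sham slices), the call was lost without library BD10_2_7, and the direction turned with the replicate block (log2 fold change 1.34, edgeR adjusted p = 0.5405).

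Vehicle-treated T41B mice and BD10-2-treated wild-type mice were then compared in their response to the same stimulation, by testing the difference of the responses in the same fit. No gene differed from the response of vehicle-treated T41B mice at an adjusted p under 0.05 (0% of genes tested, lowest edgeR adjusted p = 1), 526 differed at an unadjusted p under 0.05, and DESeq2 called 1, the predicted gene Gm4294. No gene differed from the response of BD10-2-treated wild-type mice (0%, lowest edgeR adjusted p = 0.083), 846 differed at an unadjusted p under 0.05, and DESeq2 called 20. The fit could have placed the difference for a typical gene only to within 0.44 and 0.48 on the log2 scale, the median half-width of its approximate 95% interval (1.96 SE). The second count leaned on a single animal. Mouse1592 was also the only BD10-2-treated T41B mouse of its batch, so animal and batch cannot be told apart. Without Mouse1592, 79 genes differed from wild type, 0.407% of those tested in that fit. The log2 fold change was the higher one in T41B mice for 76 of them, in 72 of which it was also the larger in size, and 73 of the 79 were among the genes called higher in the T41B slices with all mice included.

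**Figure D4:**
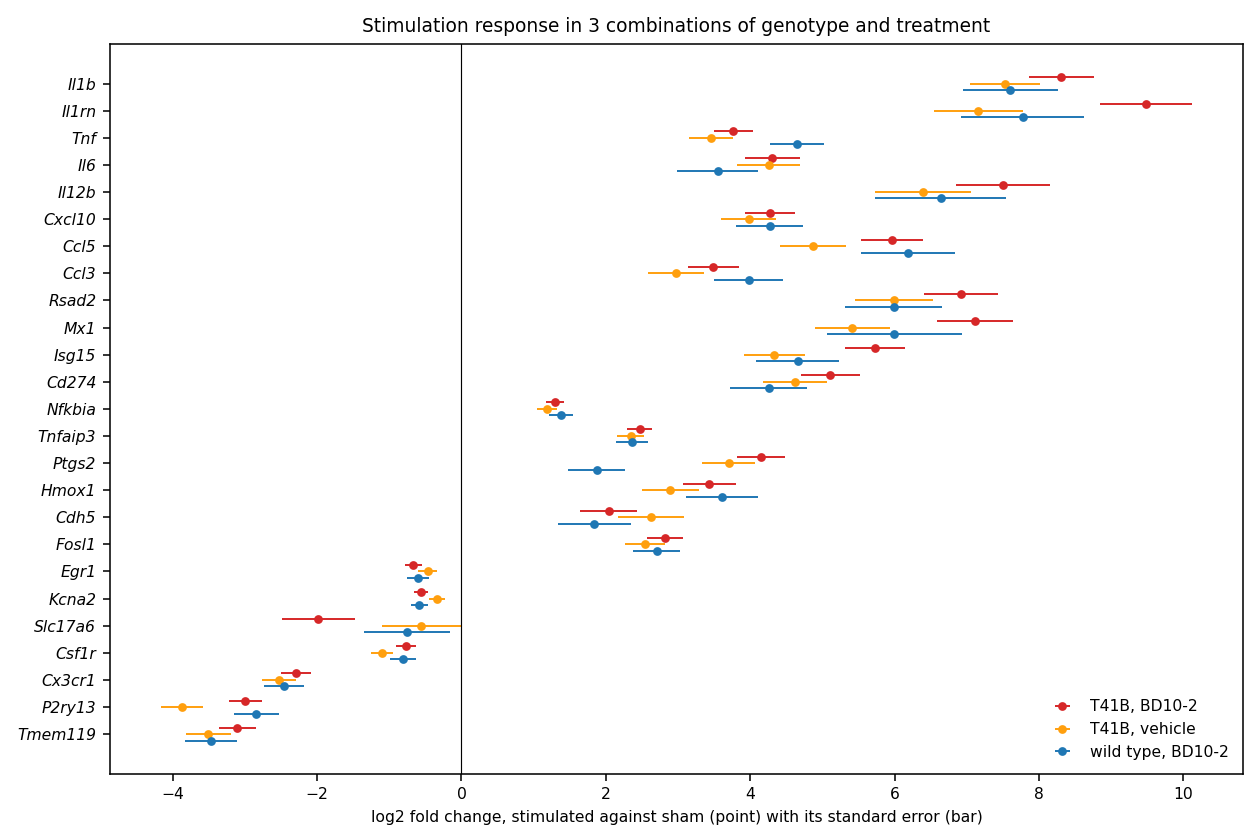
Log2 fold change of stimulated against sham slices (points) with its standard error (bars) for 25 genes in BD10-2-treated T41B, vehicle-treated T41B and BD10-2-treated wild-type mice. The direction is shared by the 3 combinations in every gene shown, and no difference between combinations was called in edgeR's test of all mice.

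Side by side, the log2 fold changes in BD10-2-treated T41B, vehicle-treated T41B and BD10-2-treated wild-type slices were 8.31, 7.53 and 7.60 for Il1b, 3.77, 3.45 and 4.65 for Tnf and 6.92, 6.00 and 5.99 for Rsad2. For Mx1 the difference from vehicle-treated mice was 1.70 (interval 0.11 to 3.29) and for Il1rn, the interleukin-1 receptor antagonist, 2.32 (0.54 to 4.10), neither past the threshold after adjustment. Among other intervals that lay to 1 side of 0 were those of Tnf from wild type, at -0.88 (-1.71 to -0.053), and, for genes that fell, of P2ry13 and Pycard from vehicle-treated mice, at 0.88 (0.16 to 1.59) and 1.37 (0.67 to 2.08), again not past the threshold. For Ptgs2 the difference from wild type was 2.27 (1.32 to 3.23), with log2 fold changes of 4.15, 3.70 and 1.87. That interval lay above 0, but the difference was not called in edgeR's test of all mice (adjusted p = 0.2515). It was called by DESeq2 (adjusted p = 0.0115) and by edgeR without Mouse1592 (adjusted p = 0.00411). Among falls, the log2 fold changes were -2.99, -3.87 and -2.84 for P2ry13, -2.29, -2.53 and -2.46 for Cx3cr1 and -1.98, -0.55 and -0.75 for Slc17a6, whose difference from vehicle-treated mice was -1.43 (-2.88 to 0.027). A difference that was not called does not show that the responses were alike.

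The levels behind these responses are given next. Summed interferon-stimulated genes stood at 220.2 to 294 CPM in sham and 886 to 5613 CPM in stimulated BD10-2-treated T41B slices. They stood at 253 to 553 and 1838 to 3914 CPM in vehicle-treated T41B slices and at 127 to 138 and 665 to 800.2 CPM in BD10-2-treated wild-type slices. The stimulated slice of Mouse1592, at 885.9 CPM, lay below the stimulated vehicle-treated T41B slices and above the BD10-2-treated wild-type slices. It lay inside the 675.5 to 1002 CPM of stimulated vehicle-treated wild-type slices. Summed homeostatic microglia genes ran 952 to 1228 CPM in sham and 555 to 736 CPM in stimulated BD10-2-treated T41B slices, 856 to 1222 and 535 to 587 CPM with vehicle and 623 to 672 and 418 to 447 CPM in wild type. Stimulated BD10-2-treated T41B slices thus overlapped the sham level of wild-type slices. These sums are descriptions and were not tested.

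**Figure D5:**
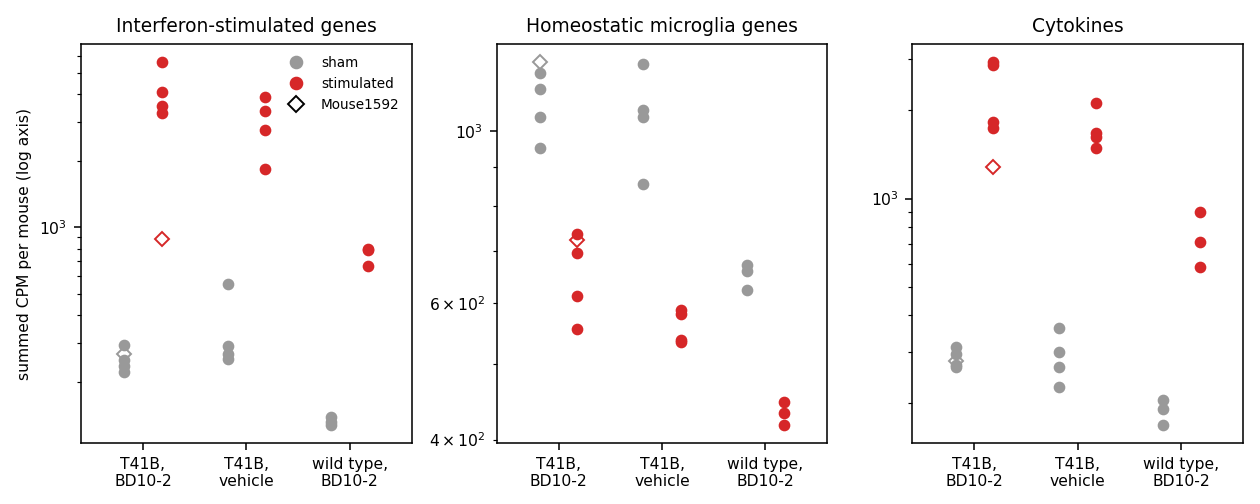
Summed CPM (log axis) of interferon-stimulated, homeostatic microglia and cytokine genes in each mouse of 3 combinations of genotype and treatment, sham in grey and stimulated in red, with Mouse1592 as a diamond. Its stimulated slice lies at 885.9 CPM of interferon-stimulated genes, below the 3290 to 5613 CPM of the other 4 BD10-2-treated T41B slices.

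Individual genes show what the count without Mouse1592 rests on. These 4 were chosen after their values were seen. Samhd1, an antiviral nucleotide hydrolase, measured 52.5, 63.5, 45.1, 54.9 and 15.8 CPM in the stimulated BD10-2-treated T41B slices against 14.2, 13.01, 12.3, 13.8 and 13.7 CPM in their sham slices, and 13.8, 16.1 and 15.3 against 13.2, 11.5 and 13.04 CPM in wild type. Ifi203, an interferon-induced DNA-binding protein, measured 47.4, 47.3, 35.99, 32.6 and 9.37 against 2.73, 2.49, 1.39, 2.56 and 2.44 CPM, and 12.1, 10.8 and 12.2 against 5.88, 6.05 and 6.17 CPM in wild type. Nos2, the inducible nitric oxide synthase, measured 10.5, 17.2, 3.95, 22.1 and 0.827 against 0.129, 0.363, 0.231, 0.412 and 0.159 CPM, and 0.568, 0.6201 and 1.06 against 0.295, 0.365 and 0.216 CPM in wild type. In all 3 genes Mouse1592 lay far below the other stimulated T41B slices. Rnf180, a ubiquitin ligase, measured 46.2, 49.9, 34.5, 31.9 and 22.6 against 10.7, 11.9, 11.96, 10.15 and 8.897 CPM, and 13.4, 15.2 and 14.2 against 8.97, 10.9 and 11.3 CPM in wild type, with Mouse1592 closer to the rest. Ifi203 and Rnf180 were the 2 genes called against wild type when only library BD10_2_30 was left out (adjusted p = 0.00746 for both in edgeR). Of the 26 interferon-stimulated genes of the list, 3 were among the 79, namely Ifit2, Stat2 and Cmpk2, which is 11.5% against the 0.407% of all genes tested. The stimulated slice left out was the lowest in the sum of these genes, so that share is not independent of leaving it out and is a description only.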

How the data were processed

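RNA of hippocampal slices was sequenced as stranded libraries after ribosomal RNA depletion, per the labels' protocols. The authors deposited RSEM expected counts per gene, of which 5.69% have decimals. The submitters' processing notes name cutadapt 1.8.1, STAR 2.7.6a, RSEM 1.3.1, featureCounts 1.6 and SAMtools 1.11 with GRCm38.p6 and mm10. Which annotation release was used, and whether reads were counted by strand, is not given in the sources used here, so reads of overlapping and antisense genes may not be separated.

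Libraries with the same mouse and stimulation labels were summed and rounded to whole numbers. In R 4.3.3, edgeR 4.0.16 (with limma 3.58.1) was used with filterByExpr (minimum count 10), TMM scaling and the quasi-likelihood F test, with 1 coefficient for each of 8 groups over 32 samples and Benjamini-Hochberg adjustment over the 19478 genes tested. SE is the absolute log2 fold change over the square root of F. CPM are counts per TMM-adjusted library, and plots add a pseudocount of 1 before the log. The test was tried on simulated counts of 19305 genes for the sham and stimulated T41B BD10-2 slices. It recovered 33% of genes changed by a log2 fold change of 0.5 and 75% of those changed by 1, and called 3 unchanged genes. Only 100 genes were changed at each size, all at 1 CPM or more. Far more genes were called in the data, so these rates need not hold there.

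Slices of a mouse are paired by the mouse number in the labels. Their deviations from the group means correlated at 0.597, 0.373, 0.238 and 0.208 in the 4 mice, against a mean of -0.0679 and a highest value of 0.261 over 21 pairs of different mice. Libraries with the same labels differed by more than sampling noise: chi-square per degree of freedom was 24 for the sham and 13.7 for the stimulated pair, within the 11.6 to 33.8 and 13.7 to 77 between mice. Alternatives were a replicate block, a batch covariate, RLE size factors, other filters, DESeq2 1.42.0, the compared groups alone, single libraries or mice left out, the 4 mice with both slices and a pseudocount of 0.1.

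Members and gene lists were chosen with earlier results of these data known. Genes are named by a rule: the 12 largest called changes in each direction, up to 4 called members of a list in each direction and its 2 most abundant members, each called one averaging at least 1 CPM, plus a few fixed genes. Gene symbols were matched to 55154 of the identifiers, and 267 were not matched. Values of a few genes that the rule names are not reported here.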

Additional observations from a re-analysis of the deposited data

Results flagged for a closer look

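Among 520 groups of 5 slices, 1 for each gene or summed list named above in sham or stimulated slices, 34 held a highest or lowest slice that stood apart from the other 4 by more than 0.71 of the range of the group. Chance flags about 1 in 20.

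Mouse1592 was the slice that stood apart in 11 of them. In the stimulated slices it was lowest in Icam1 at 75.12 CPM (others 109.9 to 122.7), in Vcam1 at 64.8 CPM (143 to 167.2) and in Cfb at 0.5319 CPM (1.992 to 2.512). It was highest in Cx3cr1 at 33.66 CPM (12.06 to 18.08), in Gpr17 at 9.19 CPM (3.775 to 4.712) and in Tlr13 at 6.176 CPM (2.198 to 3.298). In the sham slices it was highest in Tmem119 at 37.12 CPM (26.08 to 28.02), Aif1 at 10.75 CPM (7.206 to 7.743), Pycard at 4.607 CPM (3.059 to 3.236), Neu4 at 9.321 CPM (5.114 to 5.778) and AC102342.2 at 3.972 CPM (1.502 to 2.139).

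Mouse1564 was highest in the sham slices in Fos at 773.9 CPM (501.5 to 539.9), Spry2 at 65.7 CPM, Cish at 6.876 CPM, Chac1 at 2.947 CPM, Ciita at 0.52 CPM, Cd74 at 113.4 CPM (18.84 to 39.88) and H2-Eb1 at 13.29 CPM (2.706 to 5.773). In the stimulated slices it was highest in Mbp at 6644 CPM (3406 to 4267), in Apoe at 2555 CPM (1706 to 1865) and in the summed oligodendrocyte precursor markers at 834.4 CPM (575.8 to 622.8). Mouse1563 was lowest in the sham slices in Mbp at 2594 CPM (3658 to 3977), Bcas1 at 199 CPM (282.6 to 299.7) and Fa2h at 20.84 CPM (33.99 to 36.34), highest there in Cxcl3 at 0.3629 CPM, and lowest in the stimulated slices in App at 953.2 CPM (1121 to 1188). Mouse1572 was lowest in the stimulated slices in Prox1 at 87.9 CPM (136.3 to 154.1) and highest there in Cd74 at 319.8 CPM (44.53 to 102.2), H2-Ab1 at 67.37 CPM (7.713 to 16.12) and H2-Eb1 at 59.21 CPM (5.528 to 10.96). Igkc at 10.08 CPM in the sham slice of Mouse1557 exceeded the other 4 (0 to 0.1589). Mouse1570 alone held Gm26244 in the stimulated slices (32.57 CPM) and Saa3 in the sham slices (0.08249 CPM), and its sham slice was highest in Ifi205 at 0.5774 CPM.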

How the results depend on the processing

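The number of genes called higher was 2598 and lay between 2054 and 2875 in the alternatives run. The number called lower was 1855, and it was 1193 without a filter, 1031 in the 4 mice with both slices, 2073 without BD10_2_30, 2461 with the replicate block and without that library, and 1110 to 1834 when 1 mouse was left out (1110 without Mouse1564, 1224 without Mouse1570). With the replicate block for the mouse 2629 were higher and 2027 lower, of which 2312 and 1444 were also called without it. The share of calls that were higher was 58.3% and lay between 52.9% and 67.1%. Against vehicle-treated T41B mice DESeq2 called 1 gene and the other settings 0. Against BD10-2-treated wild-type mice the count was 6 with the batch covariate, 20 by DESeq2, 2 without a filter, 2 without library BD10_2_30, 3 with the replicate block and without that library (a setting chosen after seeing the data), and 0 to 79 when 1 mouse was left out (79 without Mouse1592). In these cases the cause was not tested.

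The log2 fold change of Igkc turned from -3.85 to 1.34 with the replicate block, 1.39 with the batch covariate and 1.71 with the block and without BD10_2_30. That of Gm26244 was 0 without Mouse1570, which alone held counts, and up to 10.39 when another mouse was left out. Of 231 named genes called, 222 kept their call with the replicate block, 227 without BD10_2_30 and 193 to 220 when 1 mouse was left out (193 without Mouse1564, 197 without Mouse1563), and 186 of 230 did in the 4 mice with both slices. The blocked fit changed the other calls named beside the results. Depth limits low genes: a list member under the filter on low counts was not tested.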
